A study of Mus musculus with 21 samples.

Results

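The RPA peaks described here are those at protein-coding genes, and they made up 216 of the 683 peaks in 6 deposited lists. A peak was taken when its summit, the position the peak caller gave as the highest point, lay inside the body of a RefSeq protein-coding gene or less than 2 kb from one. By that rule 195 of the 216 lay inside a gene and 21 beside one, at 109 distinct genes and 131 separate loci, a locus being all such peaks of the 6 lists that overlap by at least 1 bp. RPA32, a subunit of the single-stranded DNA binding protein RPA, was precipitated from chromatin of ATR+/- MEFs, which are passage-immortalized mouse embryonic fibroblasts carrying 1 intact Atr allele in every group, controls included. The groups were DMSO for 18 h, 0.2 uM aphidicolin (APH) for 18 h, 1 uM of an ATR inhibitor (ATRi, given as ATR-45) for 18 h, the inhibitor with aphidicolin for 9 h or for 18 h, and the inhibitor for 18 h in MEFs with knockdown of Timeless (ATRi+shTIM). There were 13 ChIP and 8 input libraries, with 3 ChIP libraries for ATRi+APH 18 h and 2 for each of the others. Each list pools the libraries of its group, so a peak has 1 value in a list and no replicate error, and no test between groups was possible. No group combined the knockdown with DMSO. Antibody came from 3 lots, with 1 lot in the ATRi+shTIM and APH groups, 2 in DMSO, ATRi and ATRi+APH 9 h, and 3 in ATRi+APH 18 h, and the part of the lot in any difference between lists was not tested.

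RPA coats single-stranded DNA, which is exposed when the replicative helicase runs ahead of the DNA polymerases or when broken forks are resected. The kinase ATR is recruited through RPA-coated DNA and keeps stalled forks from collapsing, aphidicolin slows the replicative polymerases, and Timeless holds helicase and polymerase together at the fork. Genes differ from intergenic DNA in that transcription crosses the same template as the fork, and very long genes are known to hold many of the common fragile sites seen under mild polymerase inhibition.

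Gene peaks covered 4 starts listed in the RefSeq promoter table (GRCm38.p6, the coordinates of mm10), and the 250 bases before each are shown because they let the DNA at a peak be read. They are written 5′ to 3′ on the strand of the transcript. Capitals mark a tRNA gene and the hexamer CAGAGG on either strand, the unit of a tandem repeat known to hinder DNA synthesis.
Polg, an internal start, chr7:79466274-79466523, minus strand: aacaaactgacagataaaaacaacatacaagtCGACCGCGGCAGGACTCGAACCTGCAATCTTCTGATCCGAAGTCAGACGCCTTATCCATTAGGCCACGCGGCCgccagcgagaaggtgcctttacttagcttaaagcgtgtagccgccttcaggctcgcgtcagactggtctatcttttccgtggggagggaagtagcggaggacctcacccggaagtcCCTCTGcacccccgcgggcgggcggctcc
Gp9, an internal start, chr6:87777820-87778069, plus strand: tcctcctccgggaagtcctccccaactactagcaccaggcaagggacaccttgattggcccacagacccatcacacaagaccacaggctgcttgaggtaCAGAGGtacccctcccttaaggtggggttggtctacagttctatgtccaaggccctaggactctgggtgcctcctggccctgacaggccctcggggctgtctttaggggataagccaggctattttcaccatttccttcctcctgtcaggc
Urgcp, an internal start, chr11:5741177-5741426, minus strand: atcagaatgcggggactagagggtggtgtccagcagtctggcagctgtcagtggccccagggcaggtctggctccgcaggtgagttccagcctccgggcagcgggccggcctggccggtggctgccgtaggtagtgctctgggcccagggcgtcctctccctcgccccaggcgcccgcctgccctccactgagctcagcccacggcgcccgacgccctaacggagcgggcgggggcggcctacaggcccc
Gm46741, a long noncoding RNA inside Stam2, chr2:52699142-52699391, minus strand: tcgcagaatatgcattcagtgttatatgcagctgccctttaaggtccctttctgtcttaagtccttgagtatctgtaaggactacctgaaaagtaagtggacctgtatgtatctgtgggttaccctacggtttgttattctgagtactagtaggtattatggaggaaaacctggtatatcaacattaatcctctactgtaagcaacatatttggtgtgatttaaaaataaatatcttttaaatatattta
The long capital run in the Polg sequence is the tRNA gene n-TRtcg5, which spans positions 79466419 to 79466491 of chromosome 7 (73 bp). Its opposite strand holds the letters GGTTCGA, the core of the B box to which transcription factor TFIIIC binds in tRNA genes, and these letters occur on either strand in 249 of 32851 such windows (0.758%). Summits of the Polg peak lay inside this tRNA gene in both lists that had it, at 79466436 under ATRi and at 79466445 under ATRi+APH 18 h. CAGAGG or its complement occurs in 27.4% of all windows, and the Polg and Gp9 windows held 1 copy each, the other 2 none. GC content was 58.0% for Polg, 57.6% for Gp9, 73.2% for Urgcp and 35.2% for Gm46741, against a median of 52.4% over all windows, the middle 50% of which ran from 45.2 to 61.2%. The nearest summit stood 163 bp from the listed start at Polg, 93 bp at Gm46741, 1751 bp at Urgcp and 2283 bp at Gp9. The windows at Urgcp and Gp9 thus lay in the flanks of broad peaks.

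Gene peaks formed about the same fraction of every list of more than 1 peak. In DMSO 15 of 46 peaks (32.6%, exact 95% Clopper-Pearson interval 19.5 to 48.0%) were at coding genes, in ATRi 19 of 56 (33.9%, 21.8 to 47.8%), in ATRi+APH 9 h 19 of 65 (29.2%, 18.6 to 41.8%), in ATRi+APH 18 h 104 of 327 (31.8%, 26.8 to 37.2%) and in ATRi+shTIM 59 of 188 (31.4%, 24.8 to 38.5%). The APH list held a single peak, which was over 50 kb from any coding gene. These intervals cover counting error over peaks, treat peaks as independent and say nothing about replicate cultures. All 5 overlap, and whether the share differs between the lists was not tested. Gene bodies with their 2 kb margins take up between 41.2% and 43.5% of the sequence of the chromosomes on which each list's peaks lay. The intervals of ATRi+shTIM and of both ATRi+APH lists ended below that level, and those of DMSO and ATRi did not. When peaks under 1 Mb apart were counted once, the share became 40.3% in ATRi+APH 18 h and 39.3% in ATRi+shTIM. At a −log10 q of at least 10 the DMSO list kept 5 peaks, none of them at a coding gene.

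**Figure D1:**
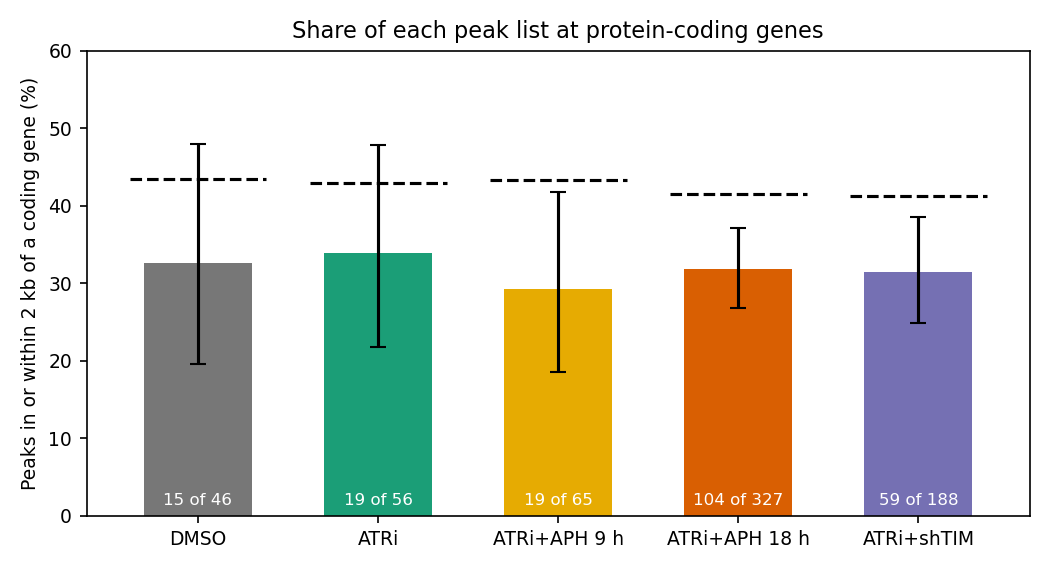
Share of the peaks of each list (%) whose summit lay in or within 2 kb of a protein-coding gene, with the number of peaks in each bar. Error bars are exact 95% binomial intervals over peaks and dashed lines give the share of sequence that such regions take up on the same chromosomes; the bars run from 29.2 to 33.9%, all under the dashed lines at 41.2 to 43.5%.

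Summits were spread along gene bodies, and 6 of the 195 inside genes lay within 1 kb of either gene edge. How much gene sequence lies that close to an edge was not computed. This count and those near gene ends below are therefore not read as avoidance. Strand was known for 82 of the 109 genes, which gave a 5′ to 3′ position for 151 of the 195 peaks inside genes. With each gene cut into 4 equal parts, 32, 33, 36 and 50 of these 151 summits fell in them, in order from the 5′ end. The median position was 56.1% of gene length in DMSO (n = 14 peaks), 61.2% in ATRi (n = 10), 67.9% in ATRi+APH 9 h (n = 13), 49.9% in ATRi+APH 18 h (n = 72) and 68.9% in ATRi+shTIM (n = 42). For ATRi+APH 18 h the 4 parts held 17, 19, 14 and 22 peaks, and for ATRi+shTIM they held 7, 8, 11 and 16. The 95% order-statistic interval of the median was 42.1 to 62.7% for ATRi+APH 18 h and 45.3 to 80.6% for ATRi+shTIM. These intervals overlap. The ATRi+APH 18 h median lay inside the ATRi+shTIM interval, but the ATRi+shTIM median lay above the ATRi+APH 18 h interval. Whether the medians differ was not tested. With the weaker peaks left out, the ATRi+shTIM median was 45.3% at a −log10 q of at least 10 and 48.4% at a −log10 p of at least 34. Loci shared between lists enter each list's median, so these are not separate samples of the genome.

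**Figure D2:**
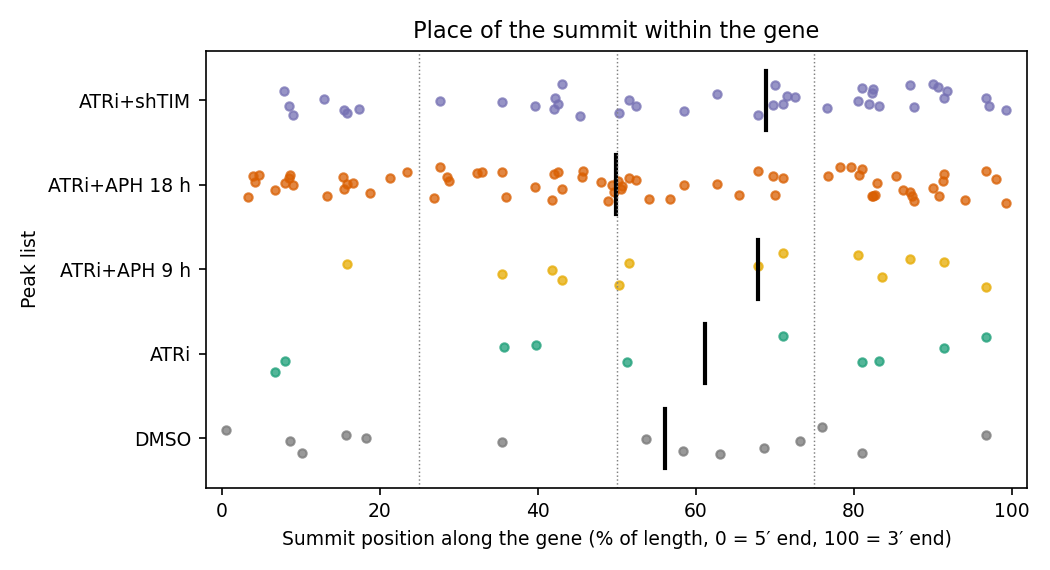
Position of each summit along its gene, in percent of gene length from the 5′ end, for the 151 peaks inside genes of known strand. Each point is a peak, black bars are medians (49.9% for ATRi+APH 18 h and 68.9% for ATRi+shTIM) and dotted lines mark 25, 50 and 75%; points cover the whole gene in the 2 large lists.

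Inside genes, 2 summits lay within 1 kb of a 5′ end. These were in Brd3, which encodes a bromodomain protein that reads acetylated histones (DMSO, 339 bp inside, 93 bp wide, 5.79-fold), and in Asmt, the last enzyme of melatonin synthesis (ATRi+shTIM, 700 bp inside, 350 bp wide, 3.29-fold). Each occurred in 1 list alone. A peak in Egr1, an immediate early transcription factor gene, lay 212 bp from a gene edge in the ATRi list (861 bp wide, 10.1-fold), but the strand of Egr1 was not in the tables used here. Among the 151 summits in genes of known strand, none lay within 500 bp of a 3′ end. The closest were in Lars2, the mitochondrial leucyl-tRNA synthetase gene, at 655 bp from the end in ATRi+APH 18 h (2.50-fold) and at 688 bp in ATRi+shTIM (7.90-fold). Over the peaks inside genes, the median distance from a summit to the nearer gene edge was 15491.5 bp in ATRi+APH 18 h (655 to 478972 bp) and 12520.5 bp in ATRi+shTIM (688 to 407275 bp).

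Beside genes, the 21 peaks belonged to 8 genes. Gp9, which encodes a platelet surface glycoprotein, had 2 peaks with upstream summits in each of the 4 inhibitor lists and therefore 8 of the 21. The nearer of the 2 reached into the gene body in all 4 lists. Pik3r6, a regulatory subunit of phosphoinositide 3-kinase gamma, had 1 peak in each of the same 4 lists, at 591 to 615 bp from the gene. Arhgap25, a GTPase-activating protein for Rac, had a peak 967 to 982 bp downstream in both ATRi+APH lists and in ATRi+shTIM. Tcl1b3 had a downstream peak in ATRi+APH 18 h (922 bp) and ATRi+shTIM (891 bp). Hes7, a repressor of the segmentation clock, had a peak 564 bp downstream in ATRi alone (821 bp wide, 10.4-fold), which covered the tRNA genes n-TLtag3 and n-TQctg6, with the summit inside the second. The other peaks stood beside Cbwd1 (1320 bp, 12.1-fold), Kpna1 (1546 bp, 3.84-fold) and Rgs20 (1684 bp, 10.1-fold), each in ATRi+APH 18 h alone. Rgs20 was the last inside the 2 kb limit, and the next peaks outside it lay near Ptgr2 at 2010 bp (29.2-fold, 1984 bp wide) and Zmat2 at 2307 bp (9.72-fold), both in ATRi+APH 18 h. DMSO had no peak beside a gene.

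In all 5 lists the median length of the genes with peaks lay between that of the median coding gene and that of the gene holding the middle base of coding-gene sequence. It was 40.1 kb in DMSO (n = 15 genes), 44.4 kb in ATRi (n = 18), 30.2 kb in ATRi+APH 9 h (n = 18), 92.2 kb in ATRi+APH 18 h (n = 86, interval 58.8 to 124.6 kb) and 75.1 kb in ATRi+shTIM (n = 52, interval 43.6 to 124.6 kb). The median of all 21521 coding genes used was 17.4 kb, and the middle base of all coding-gene sequence lay in a gene of 138.8 kb. Genes over 100 kb were 39 of 86 (45.3%, 34.6 to 56.5%) in ATRi+APH 18 h and 22 of 52 (42.3%, 28.7 to 56.8%) in ATRi+shTIM, against 3 of 15 in DMSO. Such genes are 11.3% of coding genes but 59.4% of coding-gene bases. By peaks, 48 of 96 inside genes in ATRi+APH 18 h and 27 of 54 in ATRi+shTIM (50% each) were in genes over 100 kb. The share in long genes was thus above their share of genes and not above their share of bases. With only the peaks at or above a −log10 p of 34, the medians were 49.9 kb in ATRi+APH 18 h (43 genes) and 30.2 kb in ATRi+shTIM (16 genes). That cut was chosen after seeing the data. At a −log10 q of at least 10 the medians were 92.2 kb and 74.7 kb, and this cut removed no peak of ATRi+APH 18 h.

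**Figure D3:**
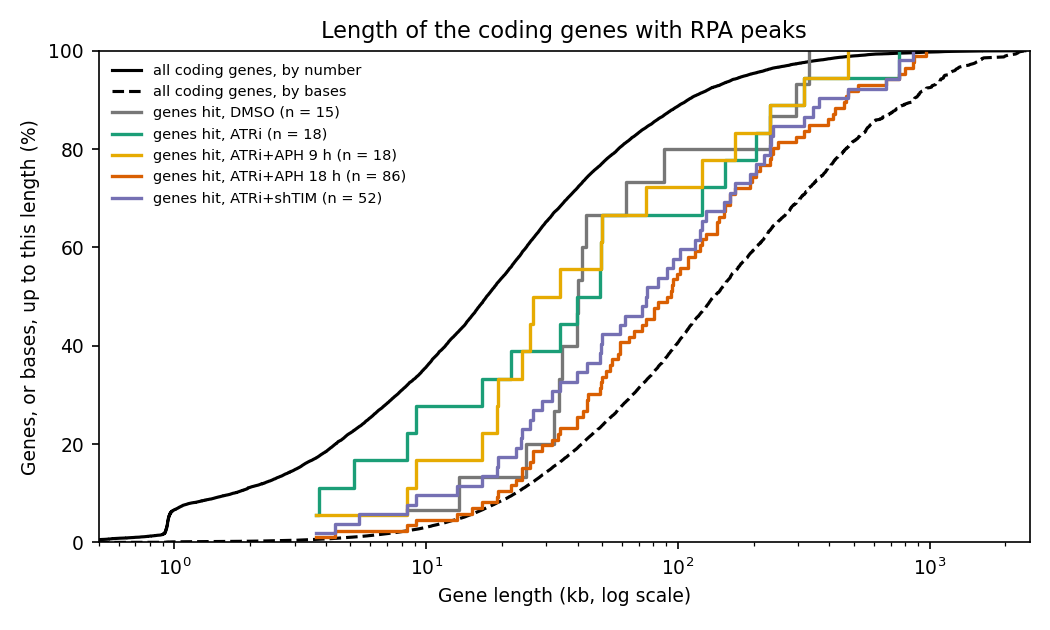
Cumulative share (%) of genes up to each length (kb, log scale) for the genes hit in each list, for all coding genes by number and for all coding genes by bases. The ATRi+APH 18 h and ATRi+shTIM curves, with medians of 92.2 and 75.1 kb, run between the curve by number (median 17.4 kb) and the curve by bases (middle at 138.8 kb).

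The 5 longest genes with a peak were Ntm (968.5 kb), a neuronal adhesion molecule, Dpyd (870.8 kb), the first enzyme of pyrimidine breakdown, Trpm3 (857.6 kb), a cation channel, Camta1 (802.2 kb), a calmodulin-binding transcription activator, and Dlgap2 (757.7 kb), a postsynaptic scaffold protein. Ntm, Dpyd and Camta1 had a peak in ATRi+APH 18 h alone, at 8.62-fold, 11.4-fold and 9.23-fold. Trpm3 had a narrow peak 407272 bp from its nearer edge in ATRi+APH 18 h (120 bp wide, 19.1-fold) and 407275 bp from it in ATRi+shTIM (217 bp wide, 19.0-fold). Dlgap2 had peaks in ATRi (547 bp wide, 2.87-fold), ATRi+APH 18 h (744 bp, 3.63-fold) and ATRi+shTIM (775 bp, 9.27-fold), with summits within 12 bp of each other. The shortest genes were Gp9 (3.66 kb), Egr1 (3.75 kb), Tcl1b3 (4.36 kb), Hes7 (5.15 kb) and Asmt (5.41 kb), and at 3 of these 5 the summit stood beside the gene.

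Of 20 genes known for common fragile sites, 2 had a peak. Gphn, the gene of the synaptic anchor gephyrin, had 1 in ATRi+APH 18 h (210 bp wide, 4.41-fold, rank 285 of 327 by fold). Negr1, a neuronal adhesion gene, had 1 in ATRi+shTIM (171 bp wide, 8.22-fold, rank 129 of 188). Among tandem gene families, none of 1109 olfactory receptor genes, 22 major urinary protein genes, 99 cytochrome P450 genes, 69 protocadherin genes or 99 histone genes had one. Of 350 vomeronasal receptor genes only Vmn2r1 did, of 60 lectin receptor genes of the Clec and Klr families only Clec2e, and of 424 zinc finger genes named Zfp, Zscan or Zkscan only Zfp980. Claudins, the strands of tight junctions, had peaks at 2 of 37 genes (Cldn18 and Cldn34-ps, 8 peaks in all). None of 44 collagen genes and none of 32 genes of the checkpoint and fork protection pathway had a peak. Over all coding genes 109 of 21521 (0.506%) had a peak. These counts describe where peaks fell, and many of the family genes are short. Many common fragile sites lie in very long genes. Genes over 100 kb were 45 of the 109 with a peak (41.3%) but 11.3% of coding genes. The 2 of 20 was not set against genes of like length.

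Some gene loci recurred from list to list. Of the 131 loci, 82 were in 1 list, 26 in 2 and 23 in 3 or more, of which 11 were in at least 4. Recurrence was not particular to gene peaks. Another list overlapped 47.1% of gene peaks and 58.7% of other peaks in ATRi+APH 18 h, and 78.0% and 86.8% in ATRi+shTIM. Among the 23, the span from the lowest to the highest summit over lists had a median of 24 bp (range 2 to 350 bp) and was 50 bp or less at 17. A locus is defined by overlap of its peaks, so at narrow loci the peak width already limits this span. Folds from different lists are not on a common scale, since depth and input differ and are unknown, so ranks within a list are given beside them.

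Ripor2, which encodes an inhibitor of the GTPase RhoA, had a peak near its 3′ end (chr13:24726124-24726321 over all lists, summits at 96.7% of gene length from the start) in all 5 lists with gene peaks. Its fold was 3.58 in DMSO (rank 33 of 46), 5.65 in ATRi (rank 45 of 56), 11.6 in ATRi+APH 9 h (rank 54 of 65), 6.55 in ATRi+APH 18 h (rank 251 of 327) and 16.2 in ATRi+shTIM (rank 43 of 188). Peaks were 83 to 192 bp wide and their summits within 7 bp of each other, so this narrow site was present without inhibitor and stood in the lower ranks of 4 of the 5 lists. The other locus in 5 lists lay in the predicted coding gene Gm11213 (chr4:63602171-63602399), named here after its values were seen. It had folds of 5.87, 12.6, 31.9, 13.0 and 48.9 in the same order of lists, and was the highest-fold peak of all 188 in ATRi+shTIM, rank 7 in ATRi, rank 9 in ATRi+APH 9 h, rank 87 in ATRi+APH 18 h and rank 20 in DMSO. Zc3h7a, a zinc finger protein gene, held the remaining DMSO peak that was seen elsewhere, at 2.26-fold in DMSO, 3.06 in ATRi, 3.68 in ATRi+APH 18 h and 5.72 in ATRi+shTIM, with no peak in ATRi+APH 9 h. It stood among the weakest peaks wherever it occurred, from rank 39 of 46 to rank 297 of 327.

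Narrow loci in all 4 inhibitor lists included several of the highest folds. Cd163l1, a scavenger receptor gene, had folds of 14.1 in ATRi, 13.9 in ATRi+APH 9 h, 12.7 in ATRi+APH 18 h and 47.1 in ATRi+shTIM, and ranked 4, 48, 96 and 2. Clec2e, a C-type lectin of the natural killer gene complex, had folds of 8.25, 18.4, 8.22 and 40.1 and ranked 34, 30, 204 and 5. Both were among the 10 highest folds of the ATRi+shTIM list, and Cd163l1 was also among the 10 highest of ATRi. Shisa6, which encodes a partner of AMPA receptors, had folds of 8.75, 33.1, 15.2 and 26.9, and ranked 32, 7, 69 and 19. Pik3r6 had 9.10, 13.8, 8.89 and 11.8 and ranked 27, 49, 188 and 69. These 4 loci were narrow, at 116 to 327 bp.

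A further 8 loci were absent from the DMSO and ATRi lists and present in the other 3 inhibitor lists. Cldn18, a claudin of stomach and lung epithelium, was the second of 65 peaks by fold in ATRi+APH 9 h (41.4-fold, 153 bp), but 248 of 327 in ATRi+APH 18 h (6.70-fold, 156 bp) and 42 of 188 in ATRi+shTIM (16.4-fold, 219 bp), with the summits within 2 bp. Nkap, a gene of a nuclear protein in splicing and Notch repression, ranked 20 at 9 h (23.0-fold), 70 at 18 h (15.0-fold) and 4 in ATRi+shTIM (41.0-fold). Eml1, a microtubule-binding protein gene, ranked 39, 139 and 48, and Bcas3 ranked 25, 253 and 144. Smo, the signal transducer of the Hedgehog pathway, was a broad and weak site in all 3, with folds of 4.76, 4.02 and 3.87 over 1509, 1930 and 1583 bp. Its summits spread over 350 bp, the widest span of the 23 loci.

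**Figure D4:**
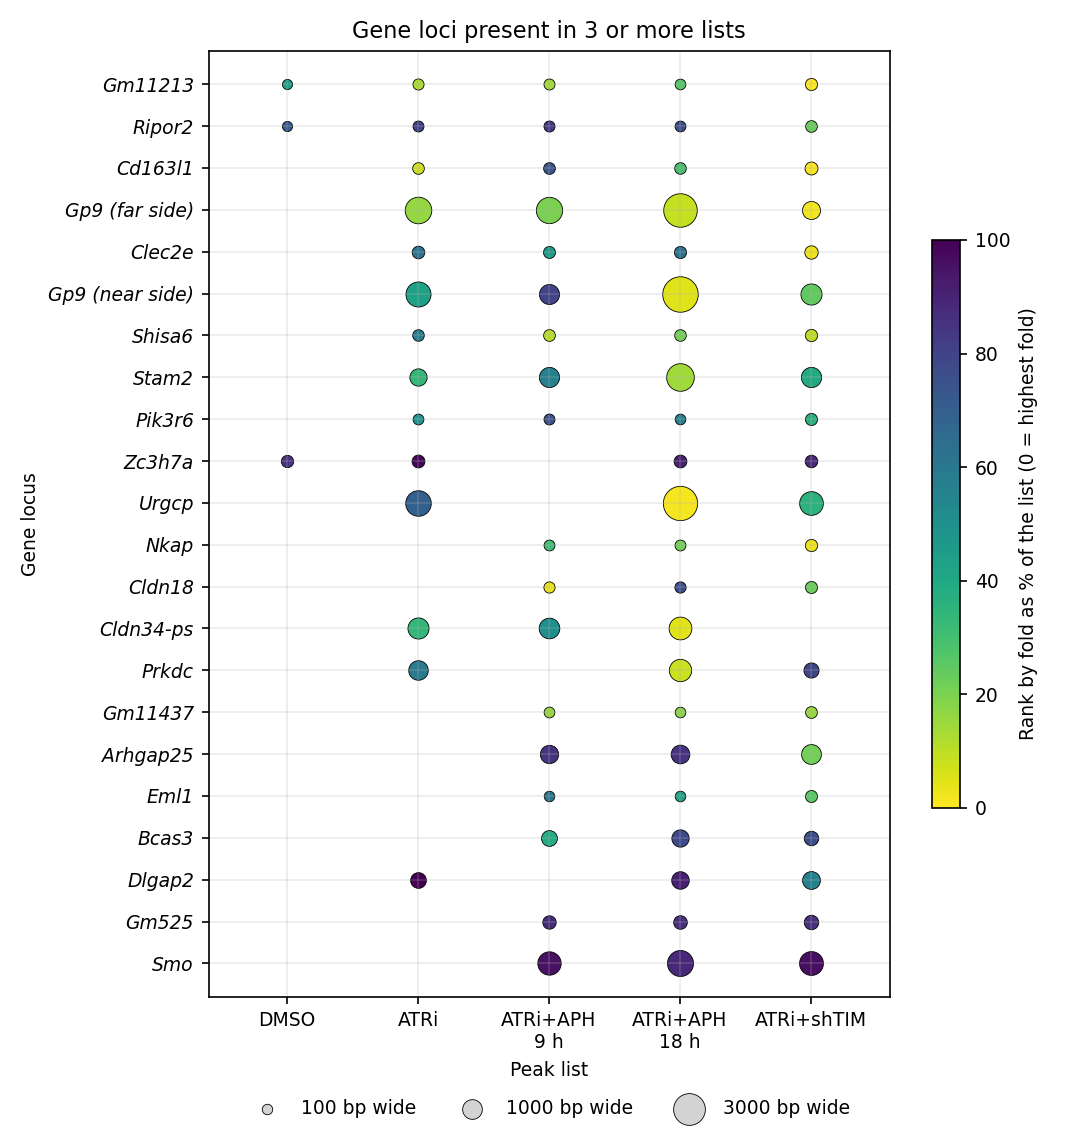
Gene loci present in 3 or more lists, 22 of the 23 (rows), by peak list (columns). A point marks a peak, its area grows with peak width and its colour gives the rank by fold in percent of the list, 0 being the highest fold. Both loci at Gp9 have their summits upstream of the gene, and the peaks of the near one reach into the gene. DMSO has 3 of the loci shown.

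Most DMSO gene peaks had no counterpart. Of 15, the 12 not overlapped by any other list lay in Gtf3c3, a subunit of the polymerase III factor TFIIIC, Sp110, Timmdc1, Kif6, Dpp9, Brd3, Elf2, Zfp980, Akr1b3, Frmd4b, Tulp3 and a gene known by number. Their folds ran from 4.22 to 6.60 and their widths from 80 to 130 bp. The share overlapped by another list was 20% in DMSO (4.33 to 48.1%), 89.5% in ATRi (66.9 to 98.7%), 100% in ATRi+APH 9 h (82.4 to 100%), 47.1% in ATRi+APH 18 h (37.2 to 57.2%) and 78.0% in ATRi+shTIM (65.3 to 87.7%). For the other peaks of the same lists it was 19.4% in DMSO, 100% in ATRi and in ATRi+APH 9 h, 58.7% in ATRi+APH 18 h (52.0 to 65.3%) and 86.8% in ATRi+shTIM (79.7 to 92.1%). The ATRi+APH 18 h list is the longest, and the part of list length in these shares was not tested. Its 55 gene peaks without a counterpart had a median fold of 9.72 and width of 250 bp, and its 49 with one had 8.82 and 276 bp. The 2 ATRi peaks without a counterpart were those at Egr1 and Hes7.

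Width and fold of gene peaks were set beside those of the other peaks of each list. Median width in ATRi+APH 18 h was 275.5 bp for gene peaks, 376.5 bp for peaks 2 to 50 kb from a coding gene and 212 bp for those over 50 kb away. In ATRi+shTIM the same medians were 256, 361.5 and 276 bp, in ATRi 547, 307 and 159.5 bp, in ATRi+APH 9 h 198, 243.5 and 156.5 bp, and in DMSO 93, 100 and 94 bp. Median folds were 9.22, 10.6 and 8.84 in ATRi+APH 18 h, 8.69, 10.6 and 10.6 in ATRi+shTIM, 9.10, 8.84 and 8.86 in ATRi, 17.2, 18.5 and 18.0 in ATRi+APH 9 h, and 5.82, 6.28 and 2.64 in DMSO. Peaks wider than 1 kb were 22 of 104 gene peaks in ATRi+APH 18 h (21.2%, 13.8 to 30.3%), 7 of 59 in ATRi+shTIM (11.9%, 4.91 to 22.9%), 5 of 19 in ATRi, 5 of 19 in ATRi+APH 9 h and 0 of 15 in DMSO (exact interval 0 to 21.8%). Of the other peaks, 44 of 223 (19.7%) were this wide in ATRi+APH 18 h, 15 of 129 (11.6%) in ATRi+shTIM, 13 of 37 in ATRi, 12 of 46 in ATRi+APH 9 h and 0 of 31 in DMSO. In ATRi+APH 18 h the other peaks were unlike among themselves, with 35 of 130 (26.9%) at 2 to 50 kb from a coding gene and 9 of 93 (9.68%) farther away. Among the 10 highest folds of a list, gene peaks were 1 in DMSO, 4 in ATRi, 4 in ATRi+APH 9 h, 1 in ATRi+APH 18 h and 6 in ATRi+shTIM. Among the 25% of peaks with the highest fold in their list were 22.1% of the gene peaks and 26.0% of the other peaks in ATRi+APH 18 h, and 13 of 59 (22%) and 34 of 129 (26.4%) in ATRi+shTIM, so the counts among the first 10 did not extend to this larger group.

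At the 46 gene loci with 1 peak in each of ATRi+APH 18 h and ATRi+shTIM, the peak was wider in ATRi+APH 18 h at 21 and narrower at 25, with a median difference of -48.5 bp (ATRi+APH 18 h minus ATRi+shTIM). It was narrower at 23 of the 32 loci of at most 500 bp in ATRi+APH 18 h, and wider at 12 of the 14 over 500 bp. That split used the ATRi+APH 18 h width itself, so it is not independent of the direction. The narrowest gene peak was 89 bp in ATRi+APH 18 h and 138 bp in ATRi+shTIM. Between 9 h and 18 h of ATRi+APH, 13 of 19 loci were wider at 18 h and 6 were narrower, with a median difference of 7 bp, which is small beside the peaks' own widths.

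The 3 broadest gene peaks were at Gp9 and Urgcp, followed in ATRi+APH 18 h by Cryz, a quinone reductase gene (2841 bp, 10.7-fold, rank 140 of 327), and the pheromone receptor gene Vmn2r1 (2582 bp, 8.91-fold, rank 186), neither of which was in another list. In ATRi+shTIM the widest were in Mepe, a bone matrix gene (2001 bp, 11.2-fold, against 2332 bp and 5.47-fold in ATRi+APH 18 h), Smo, Urgcp, Gp9 and Actr3b, an actin-related gene (1105 bp, 12.3-fold, against 497 bp and 5.48-fold). Upstream of Gp9, 2 peaks faced each other across a gap in every inhibitor list. In ATRi+APH 18 h they covered chr6:87771925-87775306 (3382 bp, 23.3-fold) and chr6:87775677-87779491 (3815 bp, 31.5-fold), the second of which ran into the gene and over the listed start whose sequence is shown above. In ATRi they were 2024 and 1773 bp wide (11.7-fold and 9.79-fold), in ATRi+APH 9 h 1974 and 1043 bp (29.0-fold and 12.4-fold), and in ATRi+shTIM 806 and 1190 bp (43.9-fold and 15.0-fold). The gap was 392 bp in ATRi, 381 bp in ATRi+APH 9 h, 370 bp in ATRi+APH 18 h and 298 bp in ATRi+shTIM, and 298 bp, chr6:87775343-87775640, were free of peaks in all 4. Between lists the outer edges moved by 2612 bp on the left and 2769 bp on the right, and the inner edges by 44 and 54 bp.

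Urgcp, a gene named for its upregulation in proliferating cells, had the highest fold of all gene peaks in ATRi+APH 18 h (42.3-fold, rank 5 of 327, 3541 bp). It had 7.41-fold in ATRi (rank 39 of 56, 1855 bp) and 12.1-fold in ATRi+shTIM (rank 67 of 188, 1563 bp), and no peak in DMSO or ATRi+APH 9 h. The 3 summits lay within 84 bp, at 39.6 to 39.8% of gene length, and no other peak of its list stood within 2 kb. In ATRi+APH 18 h it covered chr11:5740330-5743870.

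Neighbouring peaks were seen at gene loci of 4 lists, and a smaller share of gene peaks than of other peaks had one. Another peak of the same list stood under 2 kb away from 31 of 104 gene peaks (29.8%) and 106 of 223 other peaks (47.5%) in ATRi+APH 18 h, 13 of 59 (22%) and 54 of 129 (41.9%) in ATRi+shTIM, 2 of 19 and 14 of 37 in ATRi, 2 of 19 and 14 of 46 in ATRi+APH 9 h, and 0 of 15 and 7 of 31 in DMSO. Neighbours count each other, so these shares have no interval and their difference was not tested. In ATRi+APH 18 h 34 of 104 peaks shared their gene with another peak of the list, in 16 genes, against 13 of 59 in 6 genes in ATRi+shTIM, 2 of 19 in 1 gene in ATRi and in ATRi+APH 9 h, and none in DMSO. Over all lists there were 27 such neighbouring pairs, with a median gap of 468 bp (144 to 3284 bp), 25 of them under 2 kb. Genes with pairs in ATRi+APH 18 h included Myo5a, the vesicle motor myosin Va (1020 and 1748 bp wide, 22.1-fold and 22.5-fold, gap 862 bp), Cldn34-ps, annotated as coding despite its name (1425 and 2148 bp, 31.5-fold and 22.8-fold, gap 777 bp), Pag1, a membrane adaptor of Src-family kinases (1174 and 887 bp, 20.1-fold and 16.4-fold, gap 732 bp), Gdpd5, a phosphodiesterase (1633 and 740 bp, 19.9-fold and 19.6-fold, gap 160 bp), and Prkdc, the catalytic subunit of DNA-PK in end joining (373 and 1350 bp, 18.4-fold and 27.2-fold, gap 468 bp). Sun5 had a broad pair of lower fold (1106 and 1221 bp, 8.15-fold and 8.57-fold, gap 198 bp), with summits 221 and 82 bp from the gap. Stam2, an endosomal sorting adaptor gene, had 3 peaks in a row, 2212, 321 and 1191 bp wide, with gaps of 1594 and 502 bp. The first of them, at 91.5% of gene length from the start, was present in all 4 inhibitor lists with summits within 2 bp and widths of 715 bp in ATRi, 1055 bp in ATRi+APH 9 h, 2212 bp in ATRi+APH 18 h and 1065 bp in ATRi+shTIM. Prkdc, Cldn34-ps and Myo5a also had peaks in other lists. Prkdc had its broader side in ATRi (977 bp, 8.59-fold) and ATRi+shTIM (486 bp, 7.29-fold), Cldn34-ps had the first side in ATRi (1187 bp, 10.1-fold) and ATRi+APH 9 h (1121 bp, 17.8-fold) and the second in ATRi+shTIM (164 bp, 9.16-fold), and Myo5a had the first side in ATRi (278 bp, 8.78-fold). Fyb, Rsph3b, Tmem267 and Tusc3 also held separate loci over 1 kb apart in a list, of peaks under 1 kb wide apart from 1 of 1093 bp in Fyb. Rsph3b, a gene of the radial spokes of cilia, had 12.4-fold and 5.41-fold in ATRi+APH 18 h, 3284 bp apart, and 1 peak of 13.8-fold in ATRi+shTIM.

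Within broad gene peaks, the summit stood at the edge facing the neighbour where there was one and nearer the middle where there was none. Of the 39 gene peaks wider than 1 kb, 20 had another peak of the same list within 2 kb, and in all 20 the nearer end of the peak was the end facing that neighbour. These 20 peaks came from only 9 genes, and the 19 others from 13. The same site can count in several lists, and both peaks of a pair can count, so the peaks are not independent. The summit was a median of 90.5 bp from that end (69 to 367 bp), or 6.78% of the peak's width. In the 19 without a close neighbour the summit was a median of 509 bp from the nearer end (74 to 1326 bp), or 35% of the width. At ATRi+APH 18 h the distances were 92 and 110 bp at Gp9, 82 and 78 bp at Myo5a, 81 and 69 bp at Cldn34-ps and 77 bp at Pag1, against 943 bp at Urgcp, 1326 bp at Cryz, 1213 bp at Vmn2r1 and 1006 bp at Mepe. The lowest value without a neighbour was at Stam2 in ATRi+APH 9 h (74 bp), where ATRi+APH 18 h and ATRi+shTIM had a further peak on that side. In ATRi+APH 18 h paired broad peaks also had higher folds, with a median of 22.3 over 14 peaks, than lone ones, with a median of 7.64 over 8. The medians lay closer in the other lists, each with few peaks. They were 10.8 (2 paired) and 10.1 (3 lone) in ATRi and 20.7 (2) and 17.2 (3) in ATRi+APH 9 h. For ATRi+shTIM they were 13.2 (2) and 12.1 (5). The same geometry was seen away from coding genes. Of 49 other broad peaks with a close neighbour, 43 had their nearer end on the side of the neighbour, with a median of 161 bp from summit to that side, and in 35 without one the median to the nearer end was 405 bp. Broad paired peaks were therefore not particular to genes, and no replicate spread exists for these distances.

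**Figure D5:**
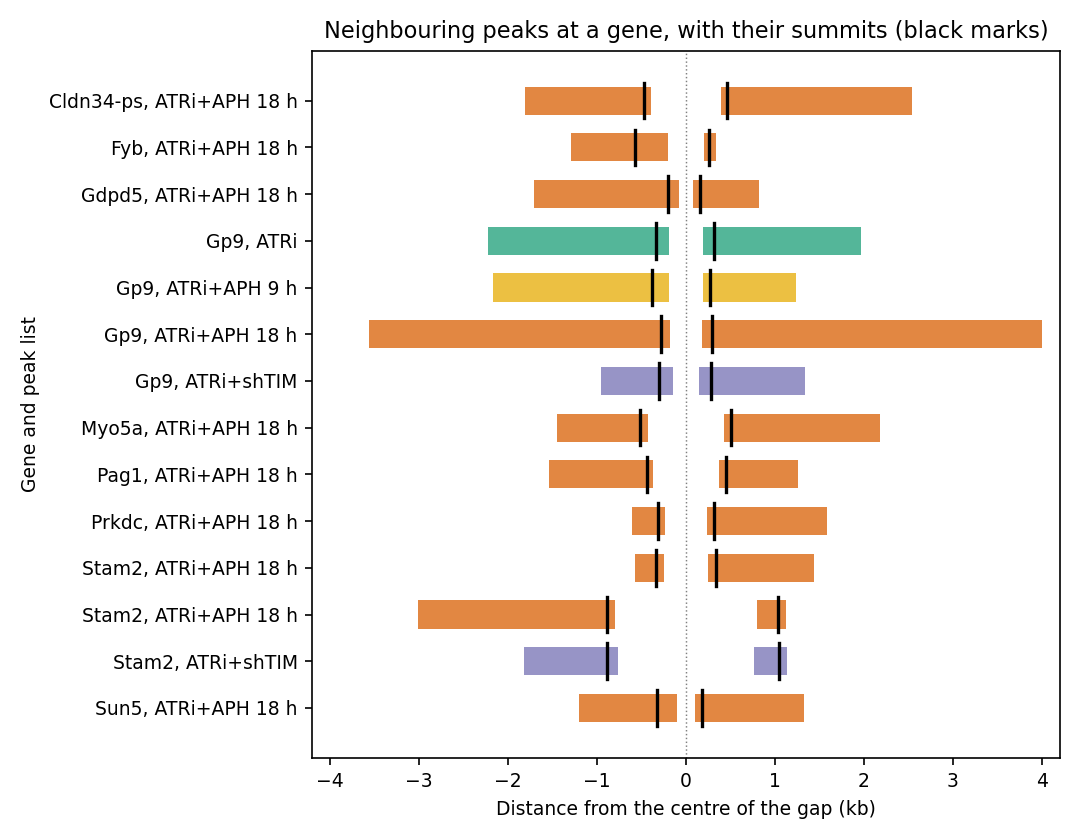
Neighbouring gene peaks under 2 kb apart in which at least 1 is wider than 1 kb, drawn as distance from the centre of the gap (kb), with 1 row per pair. Bars are peaks (green ATRi, yellow ATRi+APH 9 h, orange ATRi+APH 18 h, purple ATRi+shTIM) and black marks their summits. In 20 of 20 broad peaks the summit stands nearer the gap side, at 69 to 367 bp from it. The 20 peaks come from 9 genes, some of them repeated over lists, and are not independent.

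Other annotated features lay under a few gene peaks. The counts that follow have no share over the other peaks beside them and are not read as an excess at genes. Peaks at coding genes overlapped tRNA genes in 3 cases, the 2 Polg peaks and the Hes7 peak, and neither gene had a peak in DMSO, ATRi+APH 9 h or ATRi+shTIM. Polg, which encodes the catalytic subunit of the mitochondrial DNA polymerase, had 13.3-fold in ATRi (1145 bp, rank 6 of 56) and 14.8-fold in ATRi+APH 18 h (877 bp, rank 71 of 327), with the summits 9 bp apart and 6.76 and 6.80% of the way into the gene. Long noncoding RNA genes held the summits of 11 gene peaks, 1 each at Frmd4b, Tmem14a, Kpna1 and Camta1, and Gm46741 in Stam2 held the rest. A peak in Rp1 lay over the pseudogene Gm6101. No miRNA hairpin was overlapped. No genome sequence or exon map was used here, so whether a summit was exonic, intronic or in a repeat is not given.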

How the data were processed

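RPA32 ChIP-seq peak lists of 6 groups were used. Per the submitters' processing notes the build was mm10 and the tools were MACS2 2.1.0, Picard 1.141, SAMtools 0.1.19, STAR 2.5.2a and bcl2fastq 2.17.1.14; roles and settings are not given in the sources used here. The authors pooled the libraries of a group, per the peak names in the files. The deposited lists give a score, a fold enrichment (a ratio of ChIP over input), a −log10 p-value, a −log10 q-value and a summit for each peak. Folds are comparable within a list only, since read depth is unknown and replicates are pooled.

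Summits were set against RefSeq protein-coding gene bodies of GRCm38.p6 on chromosomes 1 to 19 and X (21521 genes, scaffold entries left out). Where genes overlapped, the shortest holding gene was taken. Strand came from the promoter table, which covers 80.3% of coding genes. Coordinates are 1-based. Python 3.11.15, pandas 2.3.3, numpy 2.4.6, SciPy 1.17.1 and matplotlib 3.10.9 were used. Intervals are exact 95% Clopper-Pearson for shares and order-statistic for medians, and both cover counting over peaks. No test was made, because each list is 1 pooled value per peak. Assignment was tested on simulated data.

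Genes named are all members of lists with at most 20, the 15 of highest fold and 5 widest in each of the ATRi+shTIM and ATRi+APH 18 h lists, genes in at least 3 lists or with 2 or more loci over 1 kb apart in a list, members within 1 kb of a 5′ end or 500 bp of a 3′ end, the 5 longest and 5 shortest genes, members of the gene lists, and the peaks around the 2 kb limit. Gm11213, Gm46741, Gm6101, Gm11437, Gm525, Sun5, Tmem14a and Rp1 were chosen after their values were seen. Results for 1 named gene and 1 gene list are not reported here, and their peaks remain in the counts. The members and the gene lists were chosen with earlier results of these data known. Alternatives were a −log10 q of at least 10, merging under 1 kb, counting peaks under 1 Mb apart once, gene bodies alone, leaving out numbered genes, any base of the peak, a 5 kb limit, other overlap rules and, chosen after seeing the data, a −log10 p of at least 34.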

Additional observations from a re-analysis of the deposited data

How the results depend on the processing

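Of 113 recomputed values of 17 results, 97 stayed within the interval of the main value, or within 1.5 times of it for gene counts. Some of the 97 could not move. The −log10 q cut removed no peak of ATRi, ATRi+APH 9 h or ATRi+APH 18 h, so values resting on those lists alone stayed identical. Merging peaks under 1 kb apart, gene bodies alone, any base of the peak, leaving out genes known by number and both other overlap rules moved none. With a −log10 q of at least 10, the DMSO share became 0.0% (0 of 5 peaks), the overlapped share 35.6% in ATRi+APH 18 h and 91.4% in ATRi+shTIM, and ATRi+shTIM had 33 genes and a median fold of 12.1. Counting peaks under 1 Mb apart once raised the shares at genes to 40.3% in ATRi+APH 18 h and 39.3% in ATRi+shTIM. A 5 kb limit raised them to 48.2% in ATRi and 37.3% in ATRi+APH 18 h. A −log10 p of at least 34, chosen after seeing the data, left 43 genes, a median length of 49.9 kb and a median fold of 12.7 in ATRi+APH 18 h, and 16 genes, 30.2 kb, a fold of 19.7 and an overlapped share of 100% in ATRi+shTIM. The median gene lengths of 92.2 and 75.1 kb were therefore lower under this later cut. At a −log10 q of at least 10 they were 92.2 and 74.7 kb, the first unchanged because that cut removed no peak of ATRi+APH 18 h. The cause of the drop under the −log10 p cut was not tested. No replicate could be left out. No paired analysis was possible because the deposited lists pool the replicates. Read depth is unknown and thresholds differ between lists, so a missing peak is not evidence of missing RPA.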

Other observations

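Equal values recurred within lists. A gene peak had the same fold and the same p-value as another peak of its list in 5 of 15 cases in DMSO, 4 of 19 in ATRi, 3 of 19 in ATRi+APH 9 h, 24 of 104 in ATRi+APH 18 h and 15 of 59 in ATRi+shTIM, with up to 6 peaks on the same values, so ranks among them are tied. In ATRi+APH 18 h such a set included Rgs20 and Kif27 (10.1-fold), and in ATRi the peaks at Egr1, Stam2 and Cldn34-ps shared 10.1-fold. Kif27 was named after its values were seen.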
